A study of Mus musculus with 16 samples.

Results

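The genes described here encode the subunits of oxidative phosphorylation, the chain of enzyme complexes by which mitochondria turn the energy of nutrients into ATP. Members were taken by symbol: every row of the deposited gene table whose name starts with Ndufa, Ndufb, Ndufc, Ndufs, Ndufv, Uqcr, Cox4 to Cox8, Atp5, mt-Nd, mt-Co, mt-Atp or mt-Cytb, without the Ndufaf assembly factors and without pseudogenes. The rule found 94 of the 28692 gene symbols in the table, of which 81 are encoded in the nucleus and 13 in the mitochondrial genome. By complex, the nuclear members comprised 36 genes of complex I, 8 of complex III, 20 of complex IV and 17 of complex V, and the mitochondrial members comprised 7 of complex I, 1 of complex III, 3 of complex IV and 2 of complex V.

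Complexes I, III and IV pass electrons from nutrients to oxygen and pump protons across the inner mitochondrial membrane, and complex V, the ATP synthase, uses the return flow of protons to make ATP. Each of these complexes is built from subunits of both origins: the mitochondrial genome encodes a few core membrane subunits, transcribed inside the organelle from long polycistronic precursors, while the other subunits are transcribed in the nucleus, translated in the cytosol and imported. Endothelial cells, which line the vessels, are known to make much of their ATP by glycolysis, and their mitochondria are also described as a source of signals and biosynthetic precursors.

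Lung endothelial cells had been sorted by flow cytometry from female C57BL/6N mice and profiled as single cells with 3' tag chemistry, in which each unique molecular identifier (UMI) stands for 1 captured transcript end, so that levels need no scaling by gene length. The groups were wild-type mice, called d0, and 3 groups of tumour mice: d15 with the primary tumour in place, d22 after it had been resected, and d36 with metastases. The tumour was grown under the skin from Lewis lung carcinoma (LLC) cells, a mouse lung tumour line, and no other allele or agent is named. Each day had 4 libraries, but the cells of the deposited table carry the day and not the library, and nothing says how many mice entered a day, so each day is 1 pooled sample: the differences below have no replicate check, no test was possible, and the intervals (95%, exact) cover counting error only.

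After filters, 8889 endothelial cells were used, with 2634 for d0, 1488 for d15, 3186 for d22 and 1581 for d36. The days differed in depth, with medians of 7650.5, 4164, 7669 and 3408 UMIs per cell, so d15 and d36 were the shallow days throughout. The endothelial label was checked against markers after clusters of other cell types had been left out: the 6 endothelial genes Pecam1, Cdh5, Cldn5, Tek, Kdr and Erg summed to between 7585 and 8695 counts per 1000000 UMIs (CPM) at every day, against at most 14.8 CPM for 4 leukocyte genes, 21.03 CPM for 4 B cell genes and 123 CPM for 6 epithelial genes. Heart muscle is rich in the subunits studied here, and 6 cardiomyocyte genes summed to between 27.0 and 31.0 CPM, with Myh6 at 0 at all days. Of all cell barcodes, 36 occurred at more than 1 day.

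The nuclear subunits together kept nearly the same share of the transcripts at all days, while the mitochondrial subunits did not. The 81 nuclear members summed to 22821 CPM at d0, 21384 CPM at d15, 23255 CPM at d22 and 22607 CPM at d36, which gives ratios to d0 of 0.937, 1.02 and 0.991. The 13 mitochondrial members summed to 20070 CPM at d0, 21347 CPM at d15, 17860 CPM at d22 and 27330 CPM at d36, with ratios of 1.06, 0.890 and 1.36. Over all cells, not matched for depth, the mitochondrial sum was thus lowest at d22 and highest at d36. This order depended on depth. With UMI ranges weighted to d0, as described below, the ratios of the mitochondrial sum were 0.763 at d15, 0.902 at d22 and 0.953 at d36. Mitochondrial UMIs per nuclear UMI, a quotient that no scaling of the total can change, came to 0.879 (d0), 0.998 (d15), 0.768 (d22) and 1.21 (d36).

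Over all cells, the split by origin ran through every complex. At d36 the mitochondrial subunits of complex I stood at 1.30 (interval 1.28 to 1.31) times their d0 level, mt-Cytb of complex III at 1.49 (1.47 to 1.51), the 3 subunits of complex IV at 1.33 (1.32 to 1.34) and the 2 of complex V at 1.38 (1.37 to 1.39). The nuclear subunits of the same complexes stood at 0.998, 0.954, 1.01 and 0.979 times their d0 levels. At d22 the mitochondrial parts were at 0.911, 0.873, 0.879 and 0.897 and the nuclear parts at 1.03, 1.02, 1.01 and 1.01. In each complex the mitochondrial part was above the nuclear part at d36 and below it at d22. These sums were not matched for depth. With depth weighted to that of d0, as described below, 4 of the 11 measured mitochondrial members were above 1 at d36 and 7 below. Among them mt-Nd1 was at 0.899, mt-Cytb at 1.01, mt-Co3 at 1.15 and mt-Atp6 at 0.979, beside 1.03 for the nuclear sum.

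**Figure D1:**
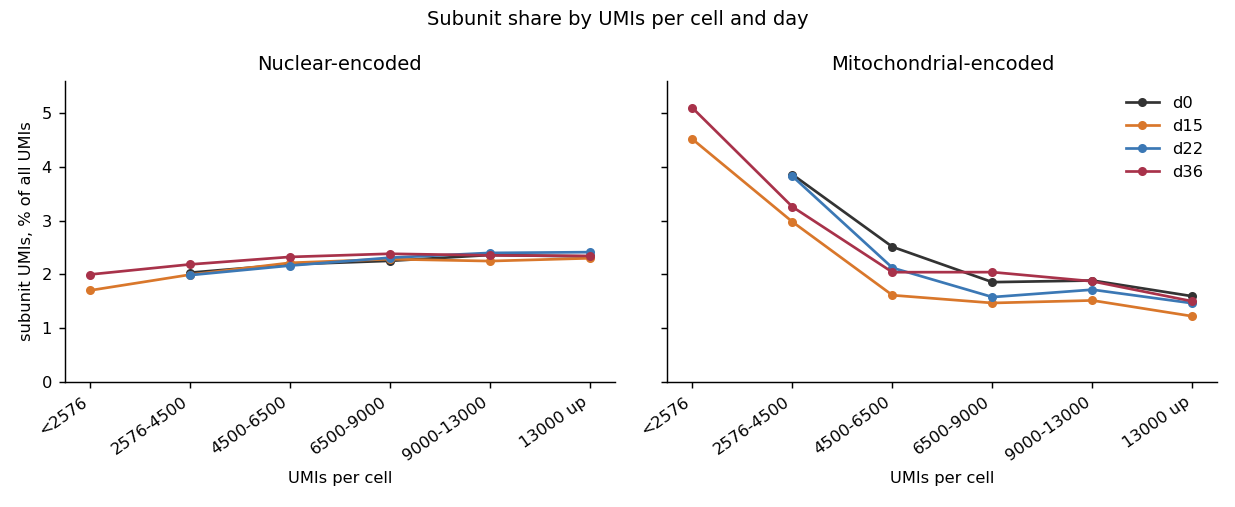
Share of all UMIs from nuclear-encoded (left) and mitochondrial-encoded members (right; percent, vertical axes) by range of UMIs per cell (horizontal axis), with 1 line per day; the d0 and d22 lines start at 2576 UMIs, under which these days are not drawn. The mitochondrial share is highest in the cells with the fewest UMIs at every day, and the nuclear share varies little; within a range the d15 line lies under the d0 line for the mitochondrial members.

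Cells with few UMIs held more mitochondrial transcripts for their size, and the 2 days with the highest mitochondrial sums held most of these cells. Across cells, the mitochondrial share and the number of UMIs had a Spearman rho of -0.397 at d0 (2634 cells), -0.590 at d15 (1488), -0.351 at d22 (3186) and -0.578 at d36 (1581). Both values contain the cell's own UMI total, so part of such a relation can come from the shared term. The nuclear share went the other way, with rho between 0.186 and 0.402. Cells under 2576 UMIs, the lowest count of any d0 cell, numbered 469 at d15 and 598 at d36, and in these cells mitochondrial members took 4.52% and 5.10% of the UMIs and nuclear members 1.70% and 1.998%.

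Compared within ranges of equal depth, the order of the days was different. Among cells of 2576 to 4500 UMIs, mitochondrial members took 3.86% of UMIs at d0 and 3.83% at d22, beside 2.98% at d15 and 3.26% at d36. Among cells of 6500 to 9000 UMIs they took 1.86% and 1.58% at the first pair of days and 1.47% and 2.04% at the second. The d15 share was below the d0 share in all 5 ranges, with ratios between 0.64 and 0.80, although the sum over all d15 cells was above d0. At d36 the 5 ratios lay between 0.81 and 1.10, on both sides of 1, and at d22 between 0.84 and 0.99. With each range weighted to its share of the d0 UMIs, the ratios of the mitochondrial sum became 0.763 at d15, 0.902 at d22 and 0.953 at d36, against 0.986, 1.02 and 1.03 for the nuclear sum. Keeping only cells above the common UMI minimum, without weighting, gave 0.891, 0.890 and 1.13 for the mitochondrial sum. The ratio above 1 at d15 was thus not seen in cells of like UMI count. That at d36 shrank and, with weighting, ended, and the ratio below 1 at d22 held in all 3 ways of counting. Cells of like UMI count need not be like cells, because the days differed in depth. The range of 2576 to 4500 UMIs held 506 of 2634 cells at d0, with none below it. At d36 it held 379 of 1581 cells, with 598 below it. The part of this in the ratios by range was not tested. The nuclear share within ranges stayed between 1.99% and 2.41% at all 4 days.

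Single cells showed the same 2 patterns. The median cell held 174.5 nuclear and 155 mitochondrial member UMIs at d0, 85 and 88 at d15, 176 and 132 at d22, and 77 and 104 at d36. The nuclear count of the d36 cells was under that of d0 in step with their lower depth, and the mitochondrial count less so. Cells with more mitochondrial than nuclear member UMIs made up 38.2% of cells (d0), 46.8% (d15), 28.7% (d22) and 59.2% (d36). Every cell at every day had at least 1 UMI of a nuclear member, and 10, 3, 4 and 10 cells had none of a mitochondrial member. When each cell was thinned to 1500 UMIs, which left out 82 cells of d15 and 129 of d36, the mean nuclear share was 2.23%, 2.02%, 2.27% and 2.18% and the mean mitochondrial share 2.34%, 2.73%, 2.08% and 3.39%; thinning evens the counts drawn per cell but not the difference between shallow and deep cells.

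Among single genes, a gene was counted as measured when it reached 50 CPM at 1 of the days compared and 200 UMIs over the pair, and as higher or lower when its ratio reached 1.5 in that direction with an interval that did not include 1. At d36, 2 of 71 measured nuclear members (Atp5k and Ndufa3) and 1 of 11 measured mitochondrial members (mt-Co3) were higher by this rule and none was lower, beside 4.28% of all measured genes higher and 3.26% lower. At d15 none of the 71 nuclear and none of the 11 mitochondrial members met it, beside 4.1% of genes higher and 2.24% lower. At d22 none met it in either set, beside 0.253% higher and 1.68% lower. At a smaller limit, the inverse of 0.8, 8 of the 11 mitochondrial members were higher at d36, beside 12.3% of all genes, and 2 nuclear members were. The comparisons share the d0 cells.

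Below the size rule the nuclear members leaned to one side at each day. Their median log2 ratio was -0.08 at d15, 0.04 at d22 and -0.06 at d36, beside 0.02, -0.01 and -0.03 over all genes. At d15, 55 of 71 had a ratio below 1, and for 36 the interval lay wholly below 1 against 8 wholly above. At d22, 49 of 71 were above 1, with 31 intervals above and 9 below, and at d36 the intervals gave 18 above and 33 below. Over all measured genes the intervals lay above 1 for 1248 and below 1 for 1193 of 3710 at d15, for 1132 and 1063 of 3564 at d22, and for 1082 and 1349 of 3648 at d36. Of the 71 nuclear members, 65 (91.5%) were neither below 0.8 times their d0 level nor above it by the inverse of that factor at any of the 3 later days, beside 64.2% of all 3489 genes measured at all days, whose levels were not matched, and beside 1 of 11 mitochondrial members (mt-Nd5). The nuclear members outside that band were Atp5k, Ndufa3, Ndufc2, Ndufs4, Uqcrc2 and Cox7a2l. With UMI ranges weighted to d0, which also leaves out cells under 2576 UMIs, 35 of the 71 were above 1 at d15 and 40 at d36.

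**Figure D2:**
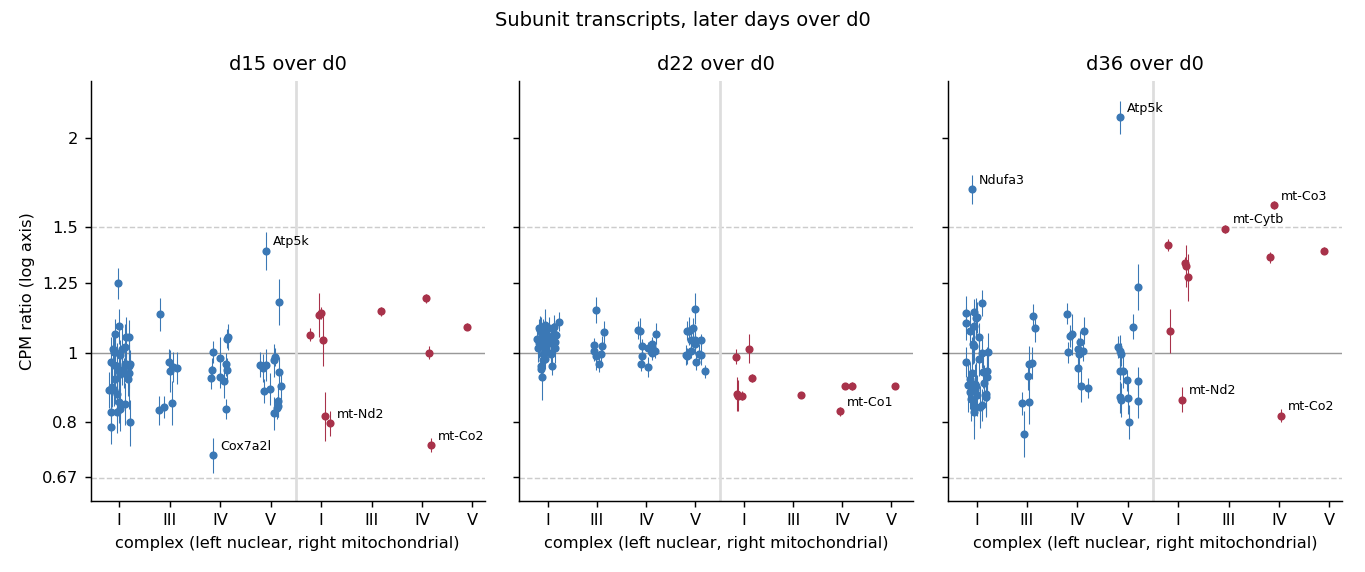
Ratio of each member's CPM at d15, d22 and d36 to d0 (vertical axis, log scale), by complex and by nuclear or mitochondrial origin; each point is 1 measured gene with its exact 95% counting interval, and the dashed lines mark the size rule of 1.5. Most nuclear points lie near 1 at every day, Atp5k and Ndufa3 stand out at d36, and most mitochondrial points lie above them at d36 and below them at d22.

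The mitochondrial members did not differ between days as a block, although most of them come from shared precursors. Transcripts of mt-Atp6, the proton-channel subunit a of ATP synthase, were the most abundant at all days, with 5301 CPM at d0, 5764 CPM at d15, 4754 CPM at d22 and 7360 CPM at d36. mt-Co3, the third core subunit of cytochrome c oxidase, had 3263 CPM at d0, 3887 CPM at d15, 2929 CPM at d22 and 5252 CPM at d36. mt-Co2, which carries the copper centre that accepts electrons from cytochrome c, had 1922 CPM at d0, 1426 CPM at d15, 1728 CPM at d22 and 1568 CPM at d36. These subunits of the same enzyme thus differed in direction: at d36 mt-Co3 was at 1.61 (1.59 to 1.63) and mt-Co2 at 0.816 times the d0 level, and at d15 they were at 1.19 and 0.742. The catalytic subunit mt-Co1 lay between them at d15 (1.00) and d36 (1.36); at d22 it was at 0.827, below mt-Co2 (0.899) and mt-Co3 (0.898).

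The other mitochondrial members split the same way. mt-Cytb, the cytochrome b of complex III, had 3308 CPM at d0, 3780 CPM at d15, 2887 CPM at d22 and 4931 CPM at d36. Of the complex I subunits, mt-Nd1 had 1851, 2105, 1707 and 2470 CPM and mt-Nd4 had 1588, 1681, 1382 and 2249 CPM over the 4 days, while mt-Nd2 had 538, 428, 531 and 462 CPM. mt-Nd2 was therefore, with mt-Co2, below its d0 level at both shallow days, at 0.796 and 0.859. Lower in level, mt-Nd3 was at 1.13 and 1.32 times d0 at d15 and d36, mt-Nd4l at 1.04 and 1.28, and mt-Nd5 at 0.814 and 1.07. At d22 the 11 measured members lay between 0.827 and 1.01, with 10 of them below 1.

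Quotients between mitochondrial genes within the same cells showed the difference in make-up most directly. mt-Co2 per mt-Co3 UMI was 0.589 (0.582 to 0.596) for d0, 0.367 (0.359 to 0.376) for d15, 0.590 (0.583 to 0.597) for d22 and 0.299 (0.292 to 0.305) for d36. The wild-type and resected days could not be told apart by this quotient, and both lay far above the tumour-bearing and metastasis-bearing days. In all 5 UMI ranges the quotient lay between 0.574 and 0.603 at d0 and d22, between 0.321 and 0.396 at d15 and between 0.237 and 0.330 at d36. mt-Nd2 per mt-Nd1 UMI went the same way, with 0.291, 0.203, 0.311 and 0.187. With UMI ranges weighted to d0, mt-Co2 had ratios of 0.522 at d15 and 0.568 at d36 and mt-Nd2 0.627 and 0.6702, while mt-Co3 had 0.883 and 1.15, so that mt-Co3 no longer reached a ratio of 1.5. Weighted in this way, mt-Nd2, mt-Co2, mt-Nd4l and mt-Nd5 at d15 and mt-Co2 at d36 lay below d0 by a factor of 1.5 or more; no interval was made for weighted ratios.

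**Figure D3:**
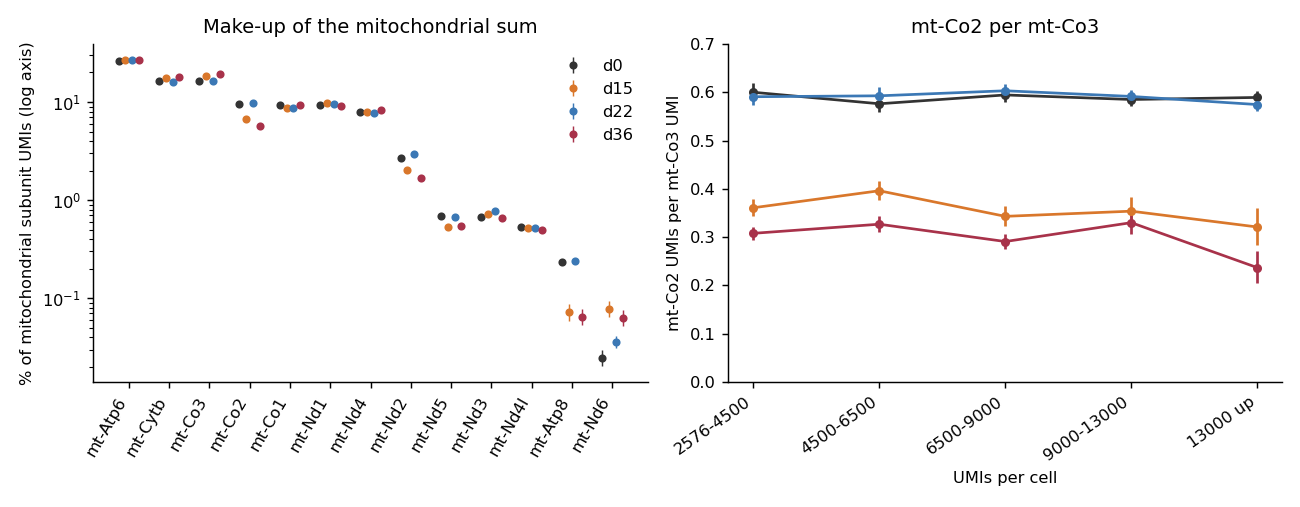
Left, share of each gene in the summed mitochondrial member UMIs (percent, log axis) by day; right, mt-Co2 UMIs per mt-Co3 UMI by range of UMIs per cell and day; bars are exact 95% intervals of counting error. mt-Co2 per mt-Co3 UMI lies near 0.59 in every range at d0 and d22 and under 0.40 in every range at d15 and d36.

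The same pair of genes was compared within the vessel classes described below. In general capillary-like cells mt-Co3 was at 1.62 and mt-Co2 at 0.799 times the d0 level at d36, in aerocyte-like cells at 2.02 and 0.961, in arterial-like cells at 1.96 and 0.847 and in venous-like cells at 1.22 and 0.702. mt-Co2 had the lower ratio of the pair in every class. d15 and d36 were also the days with fewer UMIs per cell and lower total depth, and the part of library preparation or sequencing in the make-up of the mitochondrial transcripts was not tested; the libraries of a day cannot be compared because the cells do not name them.

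mt-Atp8, a small subunit of the ATP synthase membrane domain, had 47.2 CPM at d0, 15.3 CPM at d15, 43.1 CPM at d22 and 17.8 CPM at d36, from 1085, 106, 1190 and 119 UMIs. As counted, it was high at d0 and d22 and low at d15 and d36, as mt-Co2 was, and lay below the 50 CPM minimum at all days. Its reading frame runs into that of mt-Atp6, with which it shares 43 bases on the + strand at chrM:7927-7969 (GRCm38). The shared stretch is printed because a tag that falls in it matches both genes, so their counts are uncertain; the capitals mark the start codon of mt-Atp6 and the stop codon of mt-Atp8.
mt-Atp8 and mt-Atp6 overlap: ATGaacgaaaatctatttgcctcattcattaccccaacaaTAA
mt-Atp8 per mt-Atp6 UMI was 0.00890 (d0), 0.00266 (d15), 0.00907 (d22) and 0.00241 (d36). mt-Nd6, the 1 member on the other strand of the genome, had 4.91 CPM at d0, 16.6 CPM at d15, 6.41 CPM at d22 and 17.2 CPM at d36. It was the only mitochondrial member several times higher at both shallow days, with ratios of 3.39 (2.59 to 4.43) and 3.49 (2.67 to 4.57), from no more than 177 UMIs at any day. It overlaps mt-Nd5 by 14 bases on opposite strands. mt-Nd4l overlaps mt-Nd4 by 7 bases on the same strand, so the counts of that pair need not be those of separate transcripts either.

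In complex I, the entry point for electrons from NADH, the highest nuclear members at d0 were Ndufa7, with 375 CPM at d0, 361 CPM at d15, 406 CPM at d22 and 441 CPM at d36, and Ndufa6, with 345, 323, 330 and 363 CPM. Ndufa3, an accessory subunit of the membrane arm, had 246 CPM at d0, 307 CPM at d15, 245 CPM at d22 and 416 CPM at d36. It was level at d0 and d22 and higher at both other days, with ratios of 1.2497 (1.19 to 1.31) and 1.69 (1.62 to 1.77). Within the 5 UMI ranges the d36 ratio was 1.98, 1.69, 1.52, 1.40 and 1.60. Ndufc2 had 320 CPM at d0, 251.4 CPM at d15, 328 CPM at d22 and 270.0 CPM at d36, and Ndufs4, an accessory subunit near the NADH-oxidising arm, had 160.1, 128, 172 and 138 CPM. Both were thus lowest at d15, at 0.786 and 0.798 of d0. The core subunit Ndufs1, which holds iron-sulphur clusters, had the lowest d22 ratio among the measured nuclear members, at 0.923, and Ndufa10 and Ndufb5 were among the lowest of them at d36, at 0.824 and 0.840.

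In complex III, which hands electrons from ubiquinol to cytochrome c, Uqcrb had 660 CPM at d0, 554 CPM at d15, 677 CPM at d22 and 560 CPM at d36, and Uqcr11 had 448, 435, 433 and 504 CPM. Uqcrc2, a core subunit without a redox centre, had 165 CPM at d0, 155 CPM at d15, 189 CPM at d22 and 127 CPM at d36. Among the measured nuclear members it had one of the highest ratios at d22, at 1.15 (1.10 to 1.20), and the lowest at d36, at 0.769 (0.713 to 0.829). Its partner Uqcrc1 was at 1.13 at d15.

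In complex IV, cytochrome c oxidase, Ndufa4 had 790 CPM at d0, 659 CPM at d15, 782 CPM at d22 and 705 CPM at d36; it was first described with complex I and is counted here with complex IV. Cox4i1, the common form of subunit 4, had 729, 762, 740 and 733 CPM. Cox7a2l, a relative of Cox7a2, had 311 CPM at d0, 223 CPM at d15, 297 CPM at d22 and 279 CPM at d36. It had the lowest d15 ratio among the measured nuclear members, at 0.718 (0.679 to 0.758), and was at 0.898 at d36. No nuclear complex IV member met the size rule at any day.

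The tissue isoforms of complex IV were those of non-muscle tissue. Of the muscle and heart forms, Cox6a2 had 5 UMIs at d0, none at d15 and d22, and 4 at d36, and Cox7a1 had 0.870 CPM at d0 and at most 1.74 CPM at any day; their counterparts Cox6a1 and Cox7a2 had 642 and 580 CPM at d0. Cox8b, Cox8c and Cox7b2 had no UMI at any day, which allows up to 0.130 CPM at d0, 0.434 CPM at d15, 0.109 CPM at d22 and 0.448 CPM at d36, while Cox8a had 569 CPM and Cox7b 169 CPM at d0. Cox4i2, a form of subunit 4 described in lung and linked to low oxygen, had 5.74 CPM at d0, 3.47 CPM at d15, 5.25 CPM at d22 and 8.80 CPM at d36, and was found in 1.33%, 0.538%, 1.10% and 1.14% of cells. At so few UMIs (24 to 145 per day), and with free RNA in droplets not measured here, this level cannot be assigned to a class of endothelial cell; markers of mural cells, which are known for Cox4i2 and Ndufa4l2, summed to between 10.8 and 19.1 CPM, and their part was not tested. Ndufa4l2, the hypoxia-linked relative of Ndufa4, had 3.96, 3.62, 2.61 and 2.54 CPM, and Cox6b2, known from testis, 1.00, 1.30, 0.616 and 2.39 CPM beside 549 CPM of Cox6b1 at d0.

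In complex V, Atp5b, the catalytic beta subunit, had 838 CPM at d0, 826 CPM at d15, 874 CPM at d22 and 791 CPM at d36, and Atp5j, the coupling factor of the stalk, 667, 558, 627 and 609 CPM. Atp5k, the small membrane subunit e that takes part in pairing ATP synthases, had 154 CPM at d0, 214 CPM at d15, 166 CPM at d22 and 330 CPM at d36. Among the measured nuclear members it had the highest ratio at both shallow days, 1.39 (1.31 to 1.48) at d15 and 2.13 (2.02 to 2.25) at d36, and d36 was also above d15, at 1.54 (1.44 to 1.64). The ratio at d36 was nearly the same at all depths, with 2.14, 2.25, 2.22, 2.18 and 2.102 in the 5 UMI ranges. By class it was 2.02 in general capillary-like, 2.21 in aerocyte-like, 2.65 in arterial-like and 2.65 in venous-like cells. All cells of a day come from the libraries of that day. UMI ranges and classes therefore cannot separate the stage of the mice from library preparation or sequencing. The part of these in the ratios of Atp5k and Ndufa3 was not tested.

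**Figure D4:**
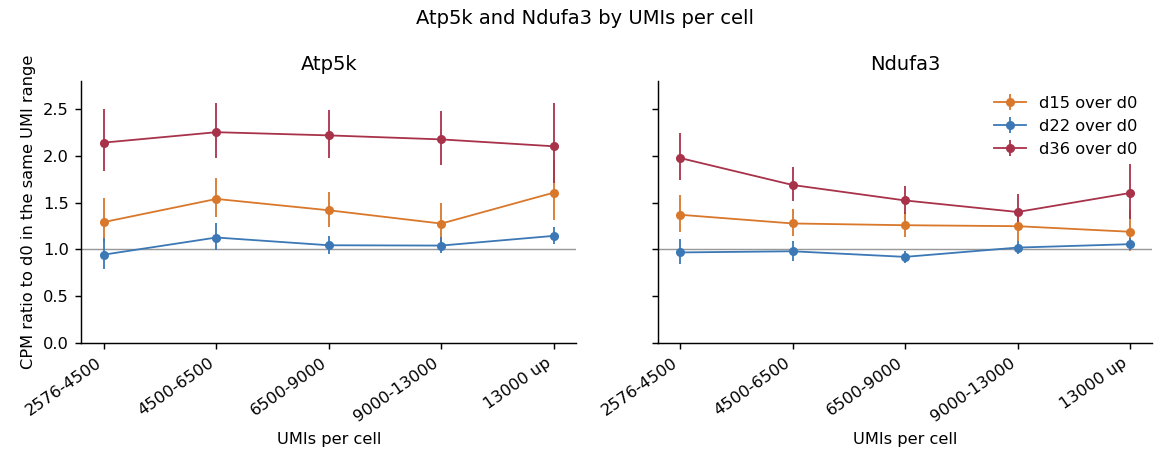
Ratio of CPM at d15, d22 and d36 to d0 (vertical axis, from 0) within ranges of UMIs per cell (horizontal axis) for Atp5k and Ndufa3, with exact 95% counting intervals; the grey line marks 1. The d36 points lie above those of d15 and d22 in every range for both genes, at 2.102 to 2.25 for Atp5k.

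The 3 genes of the membrane rotor, subunit c, encode the same mature protein and differed from each other. Atp5g1 had 284 CPM at d0, 273 CPM at d15, 282 CPM at d22 and 244 CPM at d36, and Atp5g2 had 295, 243, 317 and 236 CPM. Atp5g3 had 118 CPM at d0, 139 CPM at d15, 136 CPM at d22 and 146 CPM at d36. The least abundant copy was above d0 at all 3 days (1.18, 1.15 and 1.23), and Atp5g2 was below it at d15 (0.822) and d36 (0.8004). None of these met the size rule.

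The upstream sequences of 4 nuclear members are printed because nuclear respiratory genes are known as targets of a few shared factors: Atp5k and Ndufa3, which met the size rule, and Atp5l, subunit g of ATP synthase, and Cox6a1, which hold several matches and stayed near their d0 level at d36 (Atp5l 593 CPM at d0, 500 CPM at d15, 597 CPM at d22 and 604 CPM at d36; Cox6a1 642, 594, 618 and 643 CPM). Sequences are from RefSeq (GRCm38.p6), read 5' to 3' toward the gene; capitals mark matches to 1 of 4 motifs on either strand: GCATGCGC (the core of the NRF1 site), CCGGAAG (ETS or GABP), AAGATGGCG (YY1) and CAAGGTCA (ERR). For Ndufa3, Atp5l and Cox6a1, bases inside the annotated gene model were left out. For Atp5k the match lies at the edge of the model, at chr5:108434448, and 30 bases around the match are given. Most of these bases and of the match lie inside the model, though upstream of the RefSeq start.
Atp5k, chr5:108434430-108434459, - strand: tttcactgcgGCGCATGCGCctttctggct
Ndufa3, chr7:3617123-3617372, + strand: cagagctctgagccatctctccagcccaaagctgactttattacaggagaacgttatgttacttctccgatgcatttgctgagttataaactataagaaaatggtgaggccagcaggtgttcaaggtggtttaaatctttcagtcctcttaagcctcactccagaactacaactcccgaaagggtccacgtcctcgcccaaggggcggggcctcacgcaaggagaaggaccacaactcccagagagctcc
Atp5l, chr9:44920743-44920992, - strand: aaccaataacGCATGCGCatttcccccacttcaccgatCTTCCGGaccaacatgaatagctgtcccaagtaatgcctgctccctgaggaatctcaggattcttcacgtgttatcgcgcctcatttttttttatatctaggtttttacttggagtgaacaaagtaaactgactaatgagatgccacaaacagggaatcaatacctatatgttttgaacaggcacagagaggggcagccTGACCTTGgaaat
Cox6a1, chr5:115348982-115349208, - strand: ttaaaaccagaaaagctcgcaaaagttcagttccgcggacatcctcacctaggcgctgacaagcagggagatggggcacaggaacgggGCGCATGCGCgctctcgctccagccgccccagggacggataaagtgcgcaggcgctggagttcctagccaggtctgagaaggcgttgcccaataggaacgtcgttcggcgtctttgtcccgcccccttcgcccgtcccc
The capitals in Atp5k and in Cox6a1 are 2 overlapping NRF1 core matches on the 2 strands, since that motif nearly reads the same on both. In Atp5l the capitals are, in order, an NRF1 core match, an ETS match and an ERR match, and the Ndufa3 stretch holds none of the letters searched. Over the 64 of 81 nuclear members found in the RefSeq table, the window from 250 bases before to 50 bases after the start held the NRF1 core in 9 (14.1%), beside 3.05% of the promoters of 27025 genes. The ETS motif was in 14 members (21.9%, beside 9.93%), the YY1 motif in 7 (10.9%, beside 1.64%) and the ERR motif in 3 (4.69%, beside 1.76%); 27 members (42.2%) held at least 1 of the 4, beside 15.1%. These matches describe the letters and not binding, which was not measured.

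Annotated transcript length went with the d36 ratios of the nuclear members. Length is the median over all annotated protein-coding transcripts of a gene, so it need not be that of the transcript expressed. By this measure Uqcrc1 has 533 and Ndufs1 651 nucleotides. The 24 shortest of the 71 (median 530.5 nucleotides) had a median ratio of 1.01, with 16 above 1, and the 23 longest (median 1102.5 nucleotides) had a median of 0.900, with 3 above 1. Over the 71 genes Spearman's rho of length and log ratio was -0.451 at d36, 0.0549 at d15 and 0.234 at d22; over all measured genes with a length it was -0.00549, 0.0949 and -0.205. The share of G and C bases (GC) in the annotated transcripts also went with the ratios, most at d15. Its rho over the 71 genes was 0.495 at d15, 0.0152 at d22 and 0.245 at d36. Over all measured genes with a length it was 0.0738, 0.0568 and 0.000705. These are descriptions across genes, which share the libraries of a day. Among all nuclear members with a length, measured or not, Atp5k, at 321.5 nucleotides, is the shortest and Ndufa3, at 433 nucleotides, the sixth shortest. The part of transcript length in their ratios was not tested.

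The lists of genes around the complexes had medians on both sides of 0. Complex II, which has no mitochondrial-encoded subunit and belongs to the citric acid cycle too, had a median log2 ratio of -0.23 at d15, 0.08 at d22 and -0.19 at d36 over its 4 genes, none past the size rule; Sdhd had 127 CPM at d0, 102 CPM at d15 and 91.2 CPM at d36. Of 15 complex I assembly factors, 3 were measured at d15 and 2 at d36, none met the rule, and the medians over factors of at least 10 CPM were 0.12, 0.07 and -0.04. The list of 33 genes for assembly of complexes III, IV and V also held Atpif1, Usmg5 and 2010107E04Rik, which are not assembly factors. Of the 33 genes, 15 were measured, with medians of -0.04, 0.03 and -0.11. Cox17, the copper chaperone of complex IV, was higher at d15 and d36, with 134 CPM at d0, 230 CPM at d15 and 295 CPM at d36 (ratios 1.71 and 2.20). Pet100, another complex IV assembly factor, was higher at d36, with 76.8 CPM at d0 and 122 CPM at d36 (1.59). Among 29 genes of mitochondrial DNA expression, 5 were measured and Trmt10c, a tRNA methyltransferase of the organelle's RNase P, was higher at d15 (1.62); the medians were 0.07, 0.09 and -0.06. None of 12 regulators of mitochondrial genes met the rule at any day, with 3 measured at d15 and 2 at d36 and medians of 0.09, -0.11 and -0.01.

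No gene of the fuel pathways met the size rule. Over all measured genes, 4.1% were higher and 2.24% lower at d15, 0.253% and 1.68% at d22, and 4.28% and 3.26% at d36. Not every listed gene was measured. In lists this short, here and above, having few or no genes past the rule is not a result about the list. The 18 citric acid cycle genes had median log2 ratios of 0.00, 0.08 and -0.15 at the 3 days and the 19 glycolysis genes 0.01, -0.10 and -0.10; Hk1, which starts glycolysis, was at 0.704 at d22 and 0.736 at d36, and Ldha, which makes lactate, at 1.30 at d15. Of 21 import genes, Tomm6, a small subunit of the outer-membrane pore, was higher at d36, with 38.7 CPM at d0 and 63.4 CPM at d36 (1.64); the list's medians were 0.00, 0.04 and 0.09. Of 11 carriers and channels none met the rule, with medians of -0.10, 0.01 and -0.14, and Slc25a4, an ADP/ATP exchanger, had 443 CPM at d0, 342 CPM at d15 and 331 CPM at d36.

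Vessel classes were taken from clusters made without the members and without any mitochondrial gene, and were called by markers: general capillary-like, aerocyte-like (the thin capillary cells beside the alveoli, high in Car4 and Ednrb), arterial-like and venous-like cells. These 4 classes do not cover all cells: 1889 endothelial cells in clusters without a name (476, 194, 1011 and 208 over the 4 days) entered no class, nor did 496 cells of a Malat1-poor cluster. The deep days d0 and d22 were compared, with 1279 and 1269 general capillary-like, 462 and 548 aerocyte-like, 71 and 73 arterial-like and 130 and 121 venous-like cells. Arterial-like cells had 22185 nuclear and 25032 mitochondrial CPM at d0, beside 22883 and 20495 CPM in general capillary-like cells, so the 2 kinds of member differed in how far they stood apart. The mitochondrial sum was 1.22 times that of general capillary-like cells at d0 and 1.27 at d22 in arterial-like cells, and 1.29 and 1.23 in venous-like cells. The nuclear sum was 0.969 and 1.07 in arterial-like cells and 1.07 and 1.06 in venous-like cells. Arterial-like and venous-like cells thus had more mitochondrial transcripts at both days, and this held with UMI ranges weighted alike, at 1.30 and 1.46 for arterial-like and 1.44 and 1.49 for venous-like cells.

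**Figure D5:**
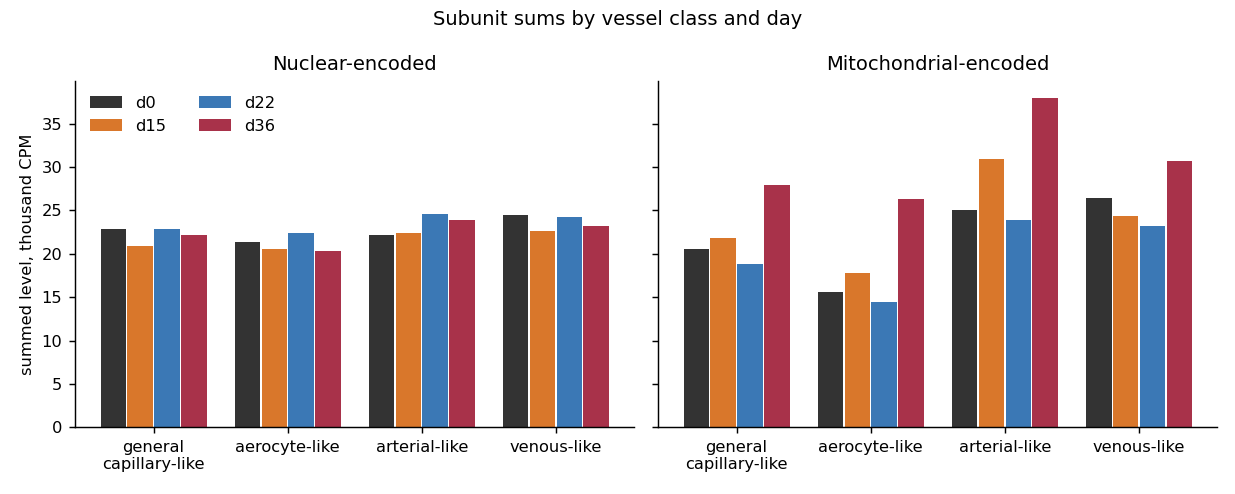
Summed levels of nuclear-encoded (left) and mitochondrial-encoded members (right; kCPM, that is 1000 CPM, vertical axis from 0) in the vessel classes, with 1 bar per day. At d0 and d22 the arterial-like and venous-like mitochondrial values lie above, and the aerocyte-like values below, those of general capillary-like cells.

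Aerocyte-like cells had a lower mitochondrial sum over all cells, and by range of depth the order turned. Their mitochondrial sum was 0.758 times that of general capillary-like cells at d0 and 0.767 at d22, with 11 of 11 measured mitochondrial members below 1 at both days, and their nuclear sum was 0.931 and 0.979. These cells were the deepest, with a median of 13011.5 UMIs at d0 beside 7415. Among d0 cells of 2576 to 4500 UMIs mitochondrial members took 5.30% of UMIs in aerocyte-like and 3.6% in general capillary-like cells, and among those of 13000 UMIs and more they took 1.21% and 1.99%. At both days the aerocyte-like share was the higher in the 3 shallower ranges and the lower in the 2 deepest, and with UMI ranges weighted alike the ratio was 1.13 at d0 and 1.26 at d22. The aerocyte-like class joined a deep cluster (median 13713 UMIs) and a shallow one (median 3185 UMIs); the deep cluster held 384 of its 462 cells at d0, and the shallow one 158 of its 242 cells at d36.

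Few single members met the size rule in a class. By the size rule at both d0 and d22, venous-like cells were higher in Ndufa8, an accessory complex I subunit, and in mt-Co1, beside 5.11% of genes higher and 7.42% lower. Ndufa8 had 487 CPM in venous-like and 317 CPM in general capillary-like cells at d0 (ratio 1.54, and 1.53 at d22), and mt-Co1 had 3087 and 1877 CPM (1.64, and 1.59 at d22). No member met the rule at both days in aerocyte-like cells, beside 12.3% of genes higher and 14.1% lower, nor in arterial-like cells, beside 5.9% higher and 13.0% lower.

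Among the nuclear members furthest apart at d0, some kept their ratio at d22 and others did not. In aerocyte-like cells Cox7a2l had 217 CPM beside 322 CPM (0.673, and 0.661 at d22) and Ndufa8 had 216 CPM beside 317 CPM (0.682, and 0.686 at d22). Ndufa8 thus lay low in aerocyte-like and high in venous-like cells at both days. In arterial-like cells Uqcrh, the hinge subunit of complex III, had 554 CPM beside 393 CPM (1.41, and 1.33 at d22), whereas Ndufa9 was at 0.553 at d0 and 0.820 at d22, Cox5a at 1.44 and 0.836 and Ndufs1 at 0.649 and 1.36. With 71 and 73 arterial-like cells the values that changed side rest on few cells. In venous-like cells Uqcrc2 was at 1.52 at d0 and 1.03 at d22, and Ndufa10 at 1.48 and 1.09. The Malat1-poor cluster, 496 cells left without a class name, had 1.34 times the nuclear and 1.68 times the mitochondrial sum of general capillary-like cells at d0.

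In each of the 4 classes the mitochondrial sum over all cells of the class was highest at d36. At d36 over d0 it was 1.36 in general capillary-like, 1.69 in aerocyte-like, 1.52 in arterial-like and 1.16 in venous-like cells, from 27 arterial-like and 34 venous-like cells at d36. The nuclear sum was 0.966, 0.956, 1.08 and 0.945. At d22 over d0 the mitochondrial ratios were 0.921, 0.932, 0.956 and 0.877, below 1 in each of the 4 classes. The shallow clusters of the capillary classes held more of the cells at d36, and within single clusters the ratios were smaller for aerocyte-like cells. The d36 ratio was 1.12 (1.10 to 1.14) in the deep and 1.21 (1.18 to 1.24) in the shallow aerocyte-like cluster, and at d22 these clusters were at 0.922 and 1.15, on both sides of 1. The clusters were not matched for depth. Median UMIs were 9257 at d36 and 14519 at d0 in the deep one, and 2394 and 4303 in the shallow one. In the 5 general capillary-like clusters the d36 ratio ranged from 1.06 to 1.59 and the d22 ratio from 0.899 to 0.981. By range of UMIs, the aerocyte-like mitochondrial share was lower at d36 than at d0 wherever both days had at least 20 cells. It was 3.84% beside 5.30% (2576 to 4500 UMIs), 2.54% beside 2.78% (4500 to 6500) and 1.31% beside 1.78% (9000 to 13000). The general capillary-like share at d36 lay on both sides of d0, with 1.95% beside 2.24% (4500 to 6500) and 2.04% beside 1.76% (6500 to 9000).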

How the data were processed

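The deposited table holds raw UMI counts per gene and cell, made by the authors with Cell Ranger 2.1.1 on mm10, per the submitters' processing notes; for the annotation release and the authors' cell filters, the sources used here give nothing. Cell names give the day, and 0 columns belonged to another series. Of 9036 cells, 19 were left out by filters (at least 300 genes, at most 10% mitochondrial UMIs), 124 lay in clusters of other cell types and 4 had over 2% of UMIs from such markers. Doublets were not called and may remain. Cells were clustered with scanpy 1.11.5 and leidenalg 0.10.2 (2000 variable genes without members and mt- genes, 30 components, 15 neighbours, resolution 1.0); clusters were named from markers, with naming limits set after clusters were seen, and cluster names were rebuilt here, not taken from the authors. Counts were summed per day and scaled to CPM, with 1 CPM added in log2 medians. Total UMIs came to 22995267 (d0), 6908837 (d15), 27595550 (d22) and 6703211 (d36). Ratios carry exact binomial intervals. Ndufa4 and Ndufa4l2 were placed in complex IV.

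Named genes were all mitochondrial members, the 2 highest nuclear members per complex at d0, the 4 highest and 4 lowest nuclear ratios per day, the 3 highest and 3 lowest per class at d0, and the tissue isoforms. Of each pathway list, genes were named among the 2 with the widest ratio. Atp5l and the sequences shown were chosen after values were seen. Members and lists were chosen with earlier results of these data known. On simulated counts for d36 over d0, the size rule called 34 of 34 measured genes made with a ratio of 2 and 0 of 3398 unchanged genes. It called 0 of 16 made with a ratio of 1.25, which is under its limit. The simulation drew counting error only. It held no differences between libraries, depths or kinds of cell, so it cannot show how often the rule errs on these days. Positions and lengths come from GENCODE M21, in which 92 of 94 members have 1 position; 5 nuclear members overlap another gene of the table on the same strand and 23 on the other strand, so some tags may be shared. Alternatives used edgeR 4.0.16 (TMM factors) and DESeq2 1.42.0 (size factors only).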

Additional observations from a re-analysis of the deposited data

How the results depend on the processing

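Every value here comes from 1 pooled sample per day, so leaving out each library in turn could not be run. No paired analysis was possible because the cells do not name their library and no test was run. Ratios to d0 are given in the order d15, d22 and d36; over all cells the quotient of mitochondrial to nuclear UMIs relative to d0 was 1.14, 0.873 and 1.37. Scaling with TMM factors gave 0.903, 1.03 and 0.988 for the nuclear sum and 1.02, 0.900 and 1.36 for the mitochondrial sum. DESeq2 size factors gave 0.910, 1.03 and 0.998 for the nuclear sum and 1.03, 0.900 and 1.37 for the mitochondrial sum. Taking all deposited cells gave 0.936, 1.02 and 0.989 for the nuclear sum, 1.07, 0.893 and 1.38 for the mitochondrial sum and 1.14, 0.875 and 1.39 for their quotient. Keeping only cells above the common UMI minimum gave 0.965, 1.02 and 1.01 for the nuclear sum, 0.891, 0.890 and 1.13 for the mitochondrial sum and 0.923, 0.873 and 1.12 for their quotient. A limit of 5% mitochondrial UMIs gave 0.949, 1.02 and 1.01 for the nuclear sum, 0.932, 0.896 and 1.14 for the mitochondrial sum and 0.982, 0.880 and 1.13 for their quotient. UMI ranges weighted to d0 gave 0.986, 1.02 and 1.03 for the nuclear sum, 0.763, 0.902 and 0.953 for the mitochondrial sum and 0.774, 0.885 and 0.929 for their quotient. Under these last 3 settings the mitochondrial sum and the quotient at d15 and the nuclear sum at d36 changed side of 1, and with weighted ranges the mitochondrial sum and quotient at d36 did so too (the first and the last of these settings leave out cells under the minimum). Thinning to 1500 UMIs per cell gave 0.907, 1.02 and 0.979 for the nuclear sum, 1.17, 0.888 and 1.45 for the mitochondrial sum and 1.29, 0.874 and 1.48 for their quotient. Classes weighted to their d0 shares gave 0.948, 1.02 and 0.980 for the nuclear sum, 1.04, 0.912 and 1.36 for the mitochondrial sum and 1.10, 0.894 and 1.39 for their quotient. Leaving out the Malat1-poor cluster gave 0.936, 1.02 and 0.980 for the nuclear sum, 1.07, 0.896 and 1.37 for the mitochondrial sum and 1.14, 0.876 and 1.39 for their quotient. Leaving out the 2% of cells with the most UMIs gave 0.937, 1.02 and 0.993 for the nuclear sum, 1.08, 0.887 and 1.39 for the mitochondrial sum and 1.15, 0.870 and 1.40 for their quotient. In place of sums, medians over members with at least 10 CPM gave 0.945, 1.03 and 0.958 for the nuclear sum and 1.06, 0.897 and 1.33 for the mitochondrial sum. Medians over all detected members gave 0.944, 1.02 and 0.966 for the nuclear sum and 1.06, 0.898 and 1.33 for the mitochondrial sum. A pseudocount of 0.1 CPM gave 0.945, 1.03 and 0.958 for the nuclear sum and 1.06, 0.897 and 1.33 for the mitochondrial sum. The median over cells of the quotient gave 1.14, 0.845 and 1.56. A smaller limit in place of the ratio of 1.5 (the inverse of 0.8) gave 4 nuclear members at d15 (Atp5k, Ndufc2, Ndufs4 and Cox7a2l), 0 at d22 and 3 at d36 (Atp5k, Ndufa3 and Uqcrc2); TMM factors, a 10 CPM minimum, no minimum and weighted UMI ranges each kept 0, 0 and 2. At the smaller limit the mitochondrial members past it numbered 2 at d15 (mt-Nd2 and mt-Co2, both lower), 0 at d22 and 8 at d36 (mt-Nd1, mt-Nd3, mt-Nd4, mt-Nd4l, mt-Co1, mt-Co3, mt-Atp6 and mt-Cytb, all higher), beside 25.1%, 8.59% and 24.9% of all measured genes in either direction.

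With UMI ranges weighted alike, the mitochondrial ratios to general capillary-like cells at d0 and d22 were 1.13 and 1.26 in aerocyte-like, 1.30 and 1.46 in arterial-like and 1.44 and 1.49 in venous-like cells, and the nuclear ratios 0.856 and 0.893, 0.9502 and 1.01, and 0.995 and 1.00. The aerocyte-like mitochondrial ratios and the venous-like nuclear ratio at d0 changed side of 1 there. At resolution 0.5, the mitochondrial ratios to general capillary-like cells at d0 and d22 were 0.764 and 0.79999 in aerocyte-like, 1.23 and 1.32 in arterial-like and 1.31 and 1.30 in venous-like cells, and the nuclear ratios 0.930 and 0.965, 0.956 and 1.05, and 1.07 and 1.04. At resolution 2.0, the mitochondrial ratios to general capillary-like cells at d0 and d22 were 0.764 and 0.801 in aerocyte-like, 1.22 and 1.33 in arterial-like and 1.30 and 1.30 in venous-like cells, and the nuclear ratios 0.929 and 0.966, 0.977 and 1.06, and 1.07 and 1.04. With members kept among the clustering genes, the mitochondrial ratios to general capillary-like cells at d0 and d22 were 0.757 and 0.784 in aerocyte-like, 1.11 and 1.11 in arterial-like and 1.29 and 1.29 in venous-like cells, and the nuclear ratios 0.929 and 0.970, 0.977 and 1.02, and 1.06 and 1.05. With cells gated on marker UMIs, the mitochondrial ratios to general capillary-like cells at d0 and d22 were 0.776 and 0.792 in aerocyte-like, 1.13 and 1.12 in arterial-like and 1.31 and 1.35 in venous-like cells, and the nuclear ratios 0.938 and 0.969, 0.998 and 1.04, and 1.08 and 1.06. Without cells under 4500 UMIs, the mitochondrial ratios to general capillary-like cells at d0 and d22 were 0.762 and 0.784 in aerocyte-like, 1.24 and 1.34 in arterial-like and 1.34 and 1.26 in venous-like cells, and the nuclear ratios 0.922 and 0.970, 0.961 and 1.06, and 1.06 and 1.05.

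Of the values of single members, mitochondrial member counts and gene lists, 1026 stayed within a limit under an alternative and 183 moved by more. The limit was the counting interval for members and a fixed step for counts and lists. The number that changed side of a called direction was 0, but only members past the size rule (Atp5k, Ndufa3 and mt-Co3 at d36) could be so counted. With weighted UMI ranges mt-Nd1 and mt-Atp6, both above d0 at d36 over all cells, came to 0.899 and 0.979. The weighting by UMI ranges, the limit on cells with the most UMIs and the setting without cells under 4500 UMIs were chosen after seeing the data. What set apart the days beyond depth was not tested. Cox4i2, Ndufa4l2 and mt-Nd6 rest on at most 177 UMIs a day.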

Other observations

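A small number of the cells kept as endothelial held almost no mitochondrial transcripts, and most of them lay in the Malat1-poor cluster. There the nuclear subunit share was high with or without mitochondrial transcripts. Cells with under 0.3% mitochondrial member UMIs numbered 45 of 2634 at d0, 20 of 1488 at d15, 31 of 3186 at d22 and 48 of 1581 at d36, and 29, 14, 21 and 36 of them lay in the Malat1-poor cluster. Nuclear members took 2.88%, 3.06%, 2.76% and 3.26% of the UMIs of these cells, against 2.28%, 2.13%, 2.32% and 2.24% in the other cells of the same days. The Malat1-poor cluster as a whole had 3.06%, 3.42%, 3.12% and 3.21%, and its cells at or above the 0.3% limit 3.06%, 3.29%, 3.07% and 3.10%. Outside that cluster the nuclear share was 2.66%, 2.08%, 2.18% and 2.82% in the 16, 6, 10 and 12 cells under the limit and 2.26%, 2.11%, 2.31% and 2.21% in the others, so it was not higher at every day. At least 1 UMI of Pecam1, Cdh5 or Cldn5 was found in 97.8%, 95%, 96.8% and 87.5% of them. The cells were picked for their low mitochondrial share, so only the nuclear share and the markers are separate measurements.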
